A study of Mus musculus with 21 samples.

Results

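Motile cilia and ependymal genes are 55 of the 16318 genes in a table of whole-brain RNA counts from SAMP8 mice, a senescence-accelerated strain. The set holds the 38 genes whose symbols start with Cfap, Dnah, Dnaic or Rsph and a number, and 17 genes named singly, Ccdc153, Calml4, Foxj1, Tmem212 and Hydin among them. The set was selected on the treatment contrast of these libraries, in which Ccdc153 and Calml4 were among the largest decreases, so all differences between treatments in these genes, counts of genes past a threshold included, are given as a description, and no p is given for a single one of them. Each of the 21 mice gave 1 library. Of these mice, 9 (3 female and 6 male) had received HsTX1[R14A], a peptide blocker of the Kv1.3 potassium channel, subcutaneously at 1 mg/kg on alternate days for 8 weeks from 4 months of age. The other 12 mice (6 female and 6 male) had received the vehicle, phosphate-buffered saline (PBS). All mice were 6 months old at the end and were perfused with PBS before the brain was snap-frozen. The strain without accelerated senescence is not in this comparison, so every value is for SAMP8 brains, and the sample titles spell the peptide HxTX1.

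Motile cilia are whip-like extensions of the cell whose core, the axoneme, bends when dynein motors slide neighboring microtubules. Outer and inner dynein arms carry the motors, radial spokes and the central apparatus pass signals to them, and the nexin-dynein regulatory complex links the doublets. In the brain, tufts of motile cilia cover the ependymal cells that line the ventricles, where their beat moves cerebrospinal fluid, and the choroid plexus epithelium, which secretes that fluid, belongs to the same lineage. Foxj1 and the RFX factors are transcription factors that switch on the genes of the motile axoneme. Ependymal cells are a small share of the cells in a whole brain, and in such bulk tissue fewer cells of a type and less RNA per cell cannot be told apart.

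RFX factors bind a palindrome named the X-box, and Foxj1 binds forkhead sites. A RefSeq promoter (GRCm38.p6, 250 bases before to 50 after the gene start) was at hand for 45 of the 55 genes. On either strand, the X-box core GTTGCCA was present in promoters of 8 of these 45 genes (17.8%), namely Cfap20, Cfap44, Cfap74, Dnah10, Dnah7b, Hydin, Mlf1 and Tekt1, and of 4.80% of the 11531 genes of the table with such a promoter. Counted by promoter, it was in 9 of the 49 promoters of the set (18.4%) and in 4.38% of all 32851. The full palindromic X-box (GTTNCC and GGNAAC with 2 free bases between) was in 1 of the 45 genes (2.22%), 1700088E04Rik, and in 0.642% of the genes of the table (0.451% of all promoters). No promoter of the 45 genes held both the full X-box and its core. The forkhead site GTAAACA was in 3 (Cfap20, Cfap43 and Mlf1, 6.67%) and in 3.14% of the genes of the table (3.65% of all promoters). These are letter matches in a fixed window and not measured binding. The stretches below are shown because they hold the full X-box (1700088E04Rik), an X-box core close to the start (Tekt1 and Hydin, whose matches began at positions -15 and -14 from it), an X-box core and a forkhead site side by side (Mlf1), and the forkhead site closest to a start (Cfap43). Each is read in the direction of its gene with the match in capitals, and TGGCAAC and TGTTTAC are the core and the forkhead site on the other strand. They come from chr15:79141243-79141311 (minus strand), chr11:72361883-72361942 (minus), chr8:110266917-110266976 (plus), chr3:67373967-67374026 (plus) and chr19:47837382-47837441 (minus), in this order.
1700088E04Rik: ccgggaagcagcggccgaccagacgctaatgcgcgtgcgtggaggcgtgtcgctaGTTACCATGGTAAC
Tekt1: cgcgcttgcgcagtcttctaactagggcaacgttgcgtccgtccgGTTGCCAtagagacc
Hydin: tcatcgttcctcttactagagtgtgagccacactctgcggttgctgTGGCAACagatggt
Mlf1: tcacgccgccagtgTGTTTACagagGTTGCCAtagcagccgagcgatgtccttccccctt
Cfap43: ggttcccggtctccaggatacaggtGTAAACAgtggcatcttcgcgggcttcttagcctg

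The genes of the lowest log2 fold changes, Ccdc153 and Calml4, held none of these letters in the 300-base window, which says nothing of the factors themselves. The 60 bases before their RefSeq starts, at chr9:44240617-44240676 and chr9:62858044-62858103 (both plus strand), are shown for comparison.
Ccdc153: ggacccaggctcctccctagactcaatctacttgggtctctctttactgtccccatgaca
Calml4: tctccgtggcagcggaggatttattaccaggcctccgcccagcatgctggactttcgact

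Levels are given as CPM, the count of a gene relative to the library total after TMM scaling, and between genes only as CPM per kb of the longest annotated transcript. Library totals ranged from 14917174 to 47613792 counts. All 55 genes passed the low-count filter of edgeR, 44 reached 10 counts in each of the mice, and 1 gene, Spag17, was at 0 counts in 1 mouse, HsTX1[R14A] male 93. Per length, Cfap36, a partner of the small GTPase Arl3, was the most abundant, with a mean of 97.0 CPM per kb in PBS mice. Cfap20, a microtubule inner protein, followed at 9.03, Rsph3a at 8.58, Cfap97 at 8.23, Rsph9 at 8.05 and Rsph1 at 7.81. The lowest level was that of Dnah7c, at 0.0391. The 55 genes summed to between 392 and 603 CPM (median 450.2) in PBS mice and to between 357 and 449 CPM (median 385) in HsTX1[R14A] mice, a sum in which Cfap36 had the largest share.

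Not all of these genes behaved as a ciliary set in untreated brains. Over the 12 PBS mice, with the mean of each sex removed, the level of each gene was correlated with the mean of the other 54. The median Pearson coefficient was 0.461, and 0.505 once the dependence of each library on transcript length and GC content was removed. After that removal it was above 0.5 for 28 genes. It was highest for the radial spoke gene Rsph1 (0.925), Cfap52 (0.923), Spag16 of the central apparatus (0.895) and the dynein light chain gene Dynlrb2 (0.892), and Foxj1 stood at 0.843. It was below 0 for 9 genes, which were Cfap54, Cfap20, Rsph3a, Cfap74, Cfap69, Cfap97, Cfap36, Dnah7c and Spag6l. Cfap36, Cfap20, Rsph3a and Cfap97, the most abundant per length, were thus all among the genes that did not follow the others. Rsph9 and Rsph1, next to them in level per length, were at 0.220 and 0.925. These coefficients are descriptions over 12 mice that share library depth and a trend on length.

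The genes outside the set that followed it most closely over the PBS mice included further axonemal genes. Among 14878 candidates with a mean of at least 20 counts, with the length and GC trend removed, the 10 with the highest coefficients were Lrrc23 (0.957), Spef2 (0.943), Spa17 (0.930), Ebf3 (0.924), Lrrc36 (0.922), Mns1 (0.919), Fam216b (0.907), Fam183b (0.902), Lrig3 (0.899) and Mycbpap (0.893). Lrrc23 is a radial spoke protein, Spef2 a component of the central apparatus and Mns1 a microtubule inner protein. Without the removal, the coefficient of Spa17 was 0.249, that of Fam183b 0.547, and those of the other 8 lay between 0.750 and 0.944.

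**Figure D1:**
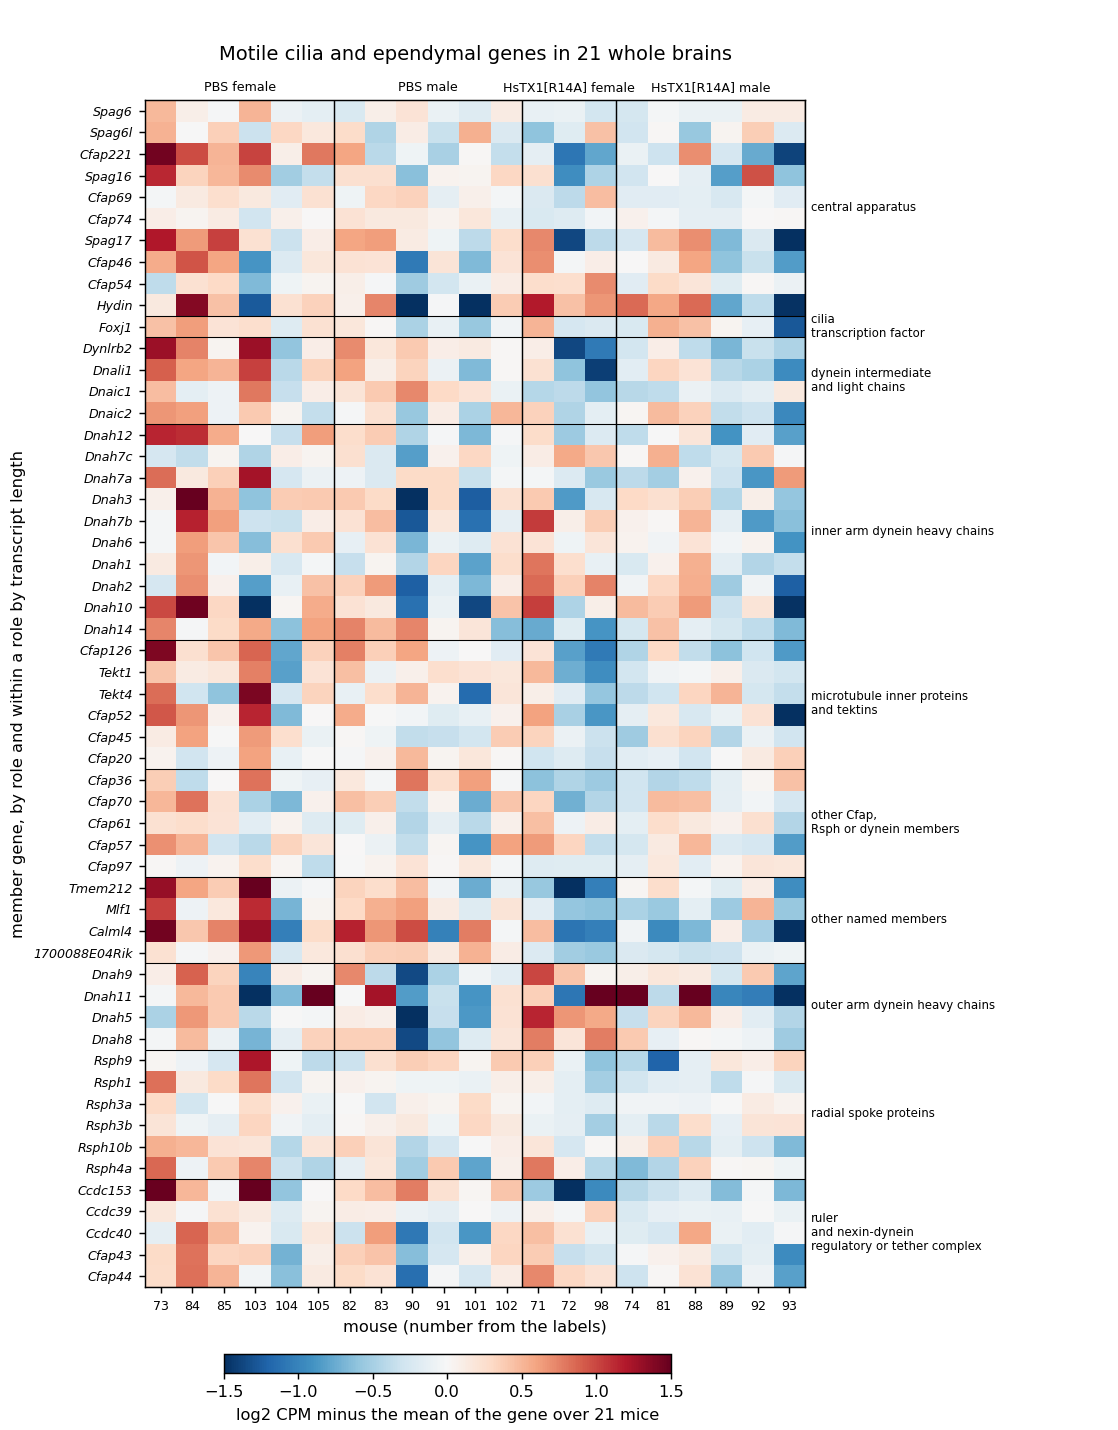
Level of the 55 genes (rows, ordered by role and then by transcript length) in the 21 mice (columns, by group), as log2 CPM minus the mean of the gene over all mice. Red is above and blue below that mean, and the color scale ends at 1.5 in each direction. The short genes Ccdc153, Tmem212 and Cfap126 are red in PBS females 73 and 103, whereas in PBS mice 90 and 103 the long dynein genes are mostly blue.

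Variation between PBS mice had a larger median for these genes than for all genes, a comparison not matched for level. Single genes of the set ranged from percentile 6.4 of all genes (Cfap74) to percentile 99 (Hydin). The biological coefficient of variation had a median of 28.9% over the 55 genes and of 20% over all 16039 genes tested in PBS mice (24.5% and 15.2% after the trend was removed). Transcript length divided the set. The 10 genes with transcripts under 2048 bases were correlated with each other over the PBS mice (median coefficient of pairs 0.734), as were the 14 with transcripts over 11000 bases (0.654), while a short with a long gene had a median of -0.257. With the length and GC trend removed from each library, these medians were 0.560, 0.338 and 0.290, so that short and long ciliary genes then varied in the same direction. Over all 1485 pairs of the 55 genes the median was 0.244 as deposited and 0.283 with the trend removed, against -0.000128 and 0.00405 among 2005 genes taken at even steps through the table.

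Against PBS, 41 of the 55 genes (74.5%) had a lower fitted level in HsTX1[R14A] mice, where 51.4% of all tested genes did. The median log2 fold change was -0.18 over the set and -0.01 over all 16303 genes. With edgeR (quasi-likelihood test, Benjamini-Hochberg adjustment over all genes), 9 of the 55 (16.4%) had a false discovery rate (FDR) of at most 0.05, all of them lower, and 31.6% of all genes did (16.1% lower and 15.5% higher). Because the set was proposed from this contrast, nothing is read from these counts. The 9 genes were Ccdc153, Calml4, Dynlrb2, Cfap126, Mlf1, Dnah14, 1700088E04Rik, Dnaic1 and Cfap36. Just outside the limit stood Rsph1 (log2 fold change -0.32), Cfap74 (-0.16) and Tmem212 (-0.81), and just inside it Mlf1 (-0.67). In no gene of the set were the treatment groups without overlap, but with no share over all genes to set beside this, nothing is read from it. Limma/voom called 13 (12 lower, 15.7% of all genes being called lower, and 1 higher, 16.2%, with 31.9% called in all) and DESeq2 14 (13 lower, 18.2%, and 1 higher, 19.5%, with 37.7% called in all), and in both the gene called higher was Dnah5. In females alone and in males alone no gene of the table passed the limit, with an unadjusted p under 0.05 for 12 of 55 genes (20.4% of all) and 10 of 54 genes (27.6% of all). With the library name form as covariate 4 were called (12.3% of all), and without the PBS mice 90 and 103 there were 7 (17.7% of all). With each library's length slope as covariate, no gene of the table was called, and 17 of the 55 had an unadjusted p under 0.05 (11.4% of all).

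Ccdc153, which encodes a coiled-coil protein of the nexin-dynein regulatory complex, lies on chromosome 9 from 44240676 to 44247306 (GRCm38, plus strand). Its level ran from 1.56 to 8.37 CPM (median 3.08) in PBS mice and from 0.772 to 2.33 CPM (median 1.62) in HsTX1[R14A] mice. All 9 HsTX1[R14A] mice lay below the PBS median and 4 lay below every PBS mouse, and the highest PBS values, which stretched the range, were those of females 73 and 103. The log2 fold change was -1.15 ± 0.28 (SE). In females alone it was -1.77 ± 0.57 and in males alone -0.77 ± 0.16.

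Calml4, a calmodulin-like gene whose protein belongs to the adhesion complex of brush border microvilli, lies on chromosome 9 from 62858080 to 62875921 (plus strand). The gene on the other strand there is Gm10653, and reads of the pair may not be separable, as the labels and the methods name different library kits. Calml4 ran from 1.01 to 5.92 CPM (median 3.50) in PBS mice and from 0.506 to 2.97 CPM (median 1.31) in HsTX1[R14A] mice. All 9 HsTX1[R14A] mice were below the PBS median, but PBS female 104 and PBS male 91 were as low as the treated mice. The log2 fold change was -1.11 ± 0.33 (SE), with -1.09 ± 0.55 in females and -1.12 ± 0.37 in males.

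In PBS mice, Calml4 followed some genes of the choroid plexus as well as some ciliary genes, among 8 chosen after the values had been seen. The p given here do not account for that choice. Over the 12 PBS mice its log2 CPM was correlated with that of Ttr, the transthyretin gene that marks choroid plexus epithelium (Pearson r = 0.893, permutation p = 0.00032, adjusted p = 0.0016; Spearman rho = 0.720, permutation p = 0.0104, adjusted p = 0.0268). Without the 2 mice farthest from the median of Calml4, r with Ttr was 0.632. With Folr1, another choroid plexus gene, r was 0.847 (permutation p = 4e-04, adjusted p = 0.0016; rho = 0.699, permutation p = 0.0134, adjusted p = 0.0268) and 0.599 without those mice.

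Kcnj13, a potassium channel gene of the same epithelium, gave r = 0.771 (permutation p = 0.00204, adjusted p = 0.00544; rho = 0.776, permutation p = 0.00391, adjusted p = 0.0156) and 0.748 without the same mice. Clic6, also on the choroid plexus list, gave r = 0.150 (permutation p = 0.640, adjusted p = 0.640; rho = -0.042, permutation p = 0.904, adjusted p = 0.904) and -0.464 without them.

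Of the ciliary genes, Dynlrb2 gave r = 0.759 (permutation p = 0.00474, adjusted p = 0.00948; rho = 0.797, permutation p = 0.003, adjusted p = 0.0156) and Ccdc153 r = 0.665 (permutation p = 0.0179, adjusted p = 0.0286; rho = 0.629, permutation p = 0.032, adjusted p = 0.0427). Without the same 2 mice these were 0.748 and 0.639. Tmem212 gave r = 0.563 (permutation p = 0.054, adjusted p = 0.072; rho = 0.664, permutation p = 0.0221, adjusted p = 0.0354) and 0.640 without them, and Foxj1 r = 0.254 (permutation p = 0.427, adjusted p = 0.488; rho = 0.315, permutation p = 0.320, adjusted p = 0.366) and 0.057. With the length and GC trend removed, r was 0.812 with Ttr, 0.779 with Folr1, 0.673 with Kcnj13, 0.600 with Ccdc153, 0.571 with Foxj1, 0.514 with Dynlrb2, 0.352 with Clic6 and 0.350 with Tmem212, so that the coefficients with Foxj1 and Clic6 were higher than as deposited and those with Dynlrb2 and Tmem212 lower. These 8 relations, each with 100000 two-sided resamples and adjustment over the 8, were chosen after the values had been seen. Within the 10 PBS mice of the more common form of library name, r with Ttr was 0.862, with Folr1 0.769, with Kcnj13 0.769, with Dynlrb2 0.614, with Ccdc153 0.538, with Tmem212 0.53, with Foxj1 0.136 and with Clic6 -0.0488.

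Among the dynein chain genes, Dynlrb2, a light chain of the roadblock family, ran from 0.779 to 3.06 CPM (median 1.35) in PBS mice and from 0.427 to 1.30 (median 0.909) in HsTX1[R14A] mice. All treated mice were below the PBS median, and 3 were below every PBS mouse. Its log2 fold change was -0.90 ± 0.25 (SE). Dnaic1, an intermediate chain of the outer arm, ran from 5.04 to 11.1 CPM (median 7.38) in PBS mice and from 4.26 to 7.13 (median 4.92) in HsTX1[R14A] mice, at -0.54 ± 0.13. In Dnaic1, 5 of the 9 treated mice were below every PBS mouse. Dnali1, an inner arm light intermediate chain, ran from 1.56 to 5.18 CPM (median 3.18) and from 0.890 to 3.14 (median 1.86), with a log2 fold change of -0.57 ± 0.23. Dnaic2 was at -0.16 ± 0.20.

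The heavy chains, which are the motors themselves and have transcripts over 11000 bases where a length was known, did not share this direction as deposited. With the length and GC trend of each library removed, 8 of the 10 inner arm genes were below 0 (median -0.40). Of the 4 outer arm genes, 2 then were (median 0.12). Dnah14, an inner arm gene without a known length, is among the 8, but no trend could be removed from it. As deposited, all 4 outer arm genes had log2 fold changes above 0, from 0.25 in Dnah9 to 0.74 in Dnah11, with Dnah8 at 0.29. None passed the FDR limit in edgeR, while Dnah5 passed it in limma/voom and DESeq2. Dnah5 ran from 0.841 to 4.51 CPM (median 2.82) in PBS mice and from 2.07 to 6.34 (median 3.62) in HsTX1[R14A] mice. The 2 treated mice above every PBS mouse were both female. Its log2 fold change was 0.50 ± 0.21 (SE). Dnah9 ran from 1.24 to 6.18 CPM (median 3.30) and from 1.87 to 6.69 (median 3.64), at 0.25 ± 0.23. Dnah11 spread most among the treated mice, from 0.202 to 9.60 CPM (median 1.13) against 0.426 to 4.57 (median 1.48) in PBS mice. Its log2 fold change of 0.74 ± 0.52 was 0.18 without HsTX1[R14A] female 98, the mouse of the highest value.

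As deposited, the 10 inner arm genes had 5 log2 fold changes below 0 and 5 above, from -0.66 to 0.30. Dnah1 ran from 4.84 to 13.5 CPM (median 8.53) in PBS mice and from 6.25 to 14.8 (median 7.86) in HsTX1[R14A] mice. Dnah6 ran from 3.29 to 8.27 (median 5.71) and from 2.83 to 6.18 (median 5.51). The groups overlapped in both genes, although 6 of the 12 PBS mice were above every treated mouse in Dnah6, with log2 fold changes of 0.13 ± 0.16 and -0.04 ± 0.15 (SE). Dnah14, which had no length in the annotation used, was the lowest at -0.66 ± 0.20, with 1.91 to 5.07 CPM (median 3.94) in PBS mice and 1.59 to 4.09 (median 2.49) in HsTX1[R14A] mice. Dnah12 was at -0.47, Dnah3 at -0.24, Dnah10 at 0.10 and Dnah2 at 0.23. Dnah7a, Dnah7b and Dnah7c are near copies whose reads may be divided between them, and their values of -0.38, 0.13 and 0.30 are uncertain for that reason.

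**Figure D2:**
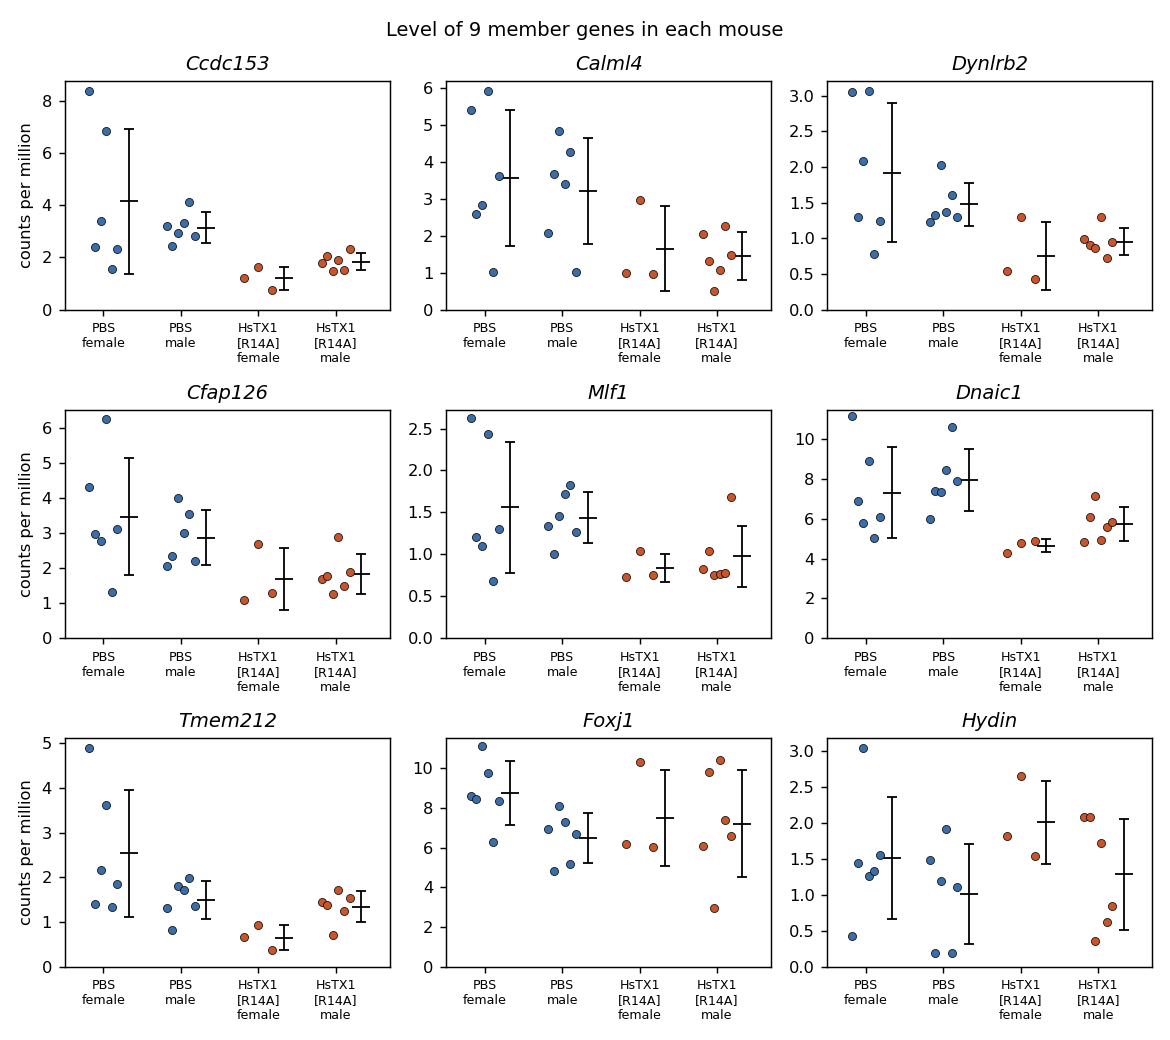
Level in CPM of 9 genes in each mouse (points) by treatment and sex, with the mean and SD of each group beside them. Ccdc153, Calml4 and Dynlrb2 lie lower in HsTX1[R14A] mice with overlap, and in Foxj1 and Hydin the treatments overlap over most of their range.

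Genes of the microtubule wall were all at log2 fold changes below 0 (6 of 6, median -0.33). Cfap126, which encodes the inner protein Flattop, ran from 1.33 to 6.27 CPM (median 2.99) in PBS mice and from 1.08 to 2.90 (median 1.70) in HsTX1[R14A] mice, at -0.79 ± 0.24 (SE). Its 9 treated mice lay below the PBS median, and 3 lay below all PBS mice. Cfap20 ran from 28.9 to 53.9 CPM (median 36.0) and from 27.7 to 45.1 (median 31.6), at -0.21 ± 0.10. Cfap45 ran from 1.90 to 3.90 CPM (median 2.49) and from 1.70 to 3.16 (median 2.33), at -0.12 ± 0.15. The tektin genes Tekt1 and Tekt4 were at -0.38 ± 0.18 and -0.28 ± 0.27, and Cfap52 at -0.39 ± 0.25.

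Radial spoke genes lay closer to 0, with 6 of 6 below it and a median of -0.18. Rsph3a ran from 15.2 to 22.8 CPM (median 19.1) in PBS mice and from 16.2 to 20.2 (median 17.8) in HsTX1[R14A] mice, and Rsph3b from 8.80 to 12.3 (median 10.1) and from 6.81 to 11.7 (median 8.96). The treated mice lay inside the PBS range in Rsph3a and partly below it in Rsph3b, with log2 fold changes of -0.10 ± 0.08 and -0.16 ± 0.09 (SE). These neighboring copies may share reads. Rsph1, Rsph9, Rsph10b and Rsph4a ranged from -0.32 to -0.01.

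In the central apparatus, 8 of 10 genes were below 0 (median -0.17) and none passed the FDR limit in edgeR, whereas Cfap74 passed it in limma/voom and DESeq2 and Cfap221 in limma/voom. Cfap69 ran from 15.1 to 21.7 CPM (median 18.4) in PBS mice and from 13.04 to 23.6 (median 15.2) in HsTX1[R14A] mice, at -0.19 ± 0.09 (SE), and Cfap74 from 10.5 to 14.9 (median 13.6) and from 10.9 to 13.4 (median 12.4), at -0.16 ± 0.06. In Cfap69, 8 of the 9 treated mice were below the PBS median and the other one was above every PBS mouse. Hydin, a very long gene of the central pair projections, ran from 0.183 to 3.04 CPM (median 1.29) and from 0.354 to 2.65 (median 1.72), at 0.38 ± 0.38. Spag6 and Spag6l, which are paralogs that may share reads, were at -0.14 ± 0.10 and -0.18 ± 0.16. The other 5 were Cfap221 (-0.73), Spag17 (-0.53), Spag16 (-0.37), Cfap46 (-0.02) and Cfap54 (0.27).

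Of the ruler, regulatory and tether genes, Ccdc153 stood apart from the other 4, whose log2 fold changes lay between -0.28 and 0.08. Ccdc39, part of the molecular ruler that spaces dynein arms and spokes, ran from 15.7 to 21.01 CPM (median 18.2) in PBS mice and from 15.3 to 22.8 (median 16.8) in HsTX1[R14A] mice, at -0.03 ± 0.06 (SE). Its partner Ccdc40 was at 0.08 ± 0.20 (SE), and Cfap43, of the same tether as Cfap44, at -0.28 ± 0.18. Cfap44, of the tether of an inner arm, ran from 1.54 to 6.15 (median 3.76) and from 1.92 to 5.73 (median 3.50), at -0.01 ± 0.19.

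Foxj1, the regulator of the program, was at the same fitted level in both treatments, with a log2 fold change of 0.00 ± 0.18 (SE). It ran from 4.84 to 11.1 CPM (median 7.69) in PBS mice and from 2.93 to 10.4 (median 6.60) in HsTX1[R14A] mice. The treated range covered nearly all of the PBS range, and HsTX1[R14A] male 93 was the lowest mouse.

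The remaining genes had log2 fold changes mostly below 0. 1700088E04Rik ran from 4.36 to 8.16 CPM (median 5.91) in PBS mice and from 3.48 to 4.91 (median 4.27) in HsTX1[R14A] mice, at -0.54 ± 0.10 (SE), and 11 of the 12 PBS mice lay above every treated mouse. Mlf1, a myeloid leukemia factor gene, ran from 0.688 to 2.63 CPM (median 1.32) and from 0.735 to 1.69 (median 0.777), at -0.67 ± 0.22, with every treated mouse inside the PBS range. Tmem212, a transmembrane protein gene, ran from 0.812 to 4.90 (median 1.76) and from 0.366 to 1.72 (median 1.24), at -0.81 ± 0.32, and its 2 highest mice were the PBS females 73 and 103. Cfap36 ran from 104 to 239 CPM (median 144) and from 88.4 to 184 (median 104), at -0.54 ± 0.15, with 5 treated mice below every PBS mouse. Cfap97 ran from 28.6 to 44.5 (median 37.7) and from 32.5 to 42.0 (median 33.8), at -0.09 ± 0.07. Cfap61 and Cfap57 were at 0.15 ± 0.11 and 0.00 ± 0.21, and Cfap70 at -0.18 ± 0.22.

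**Figure D3:**
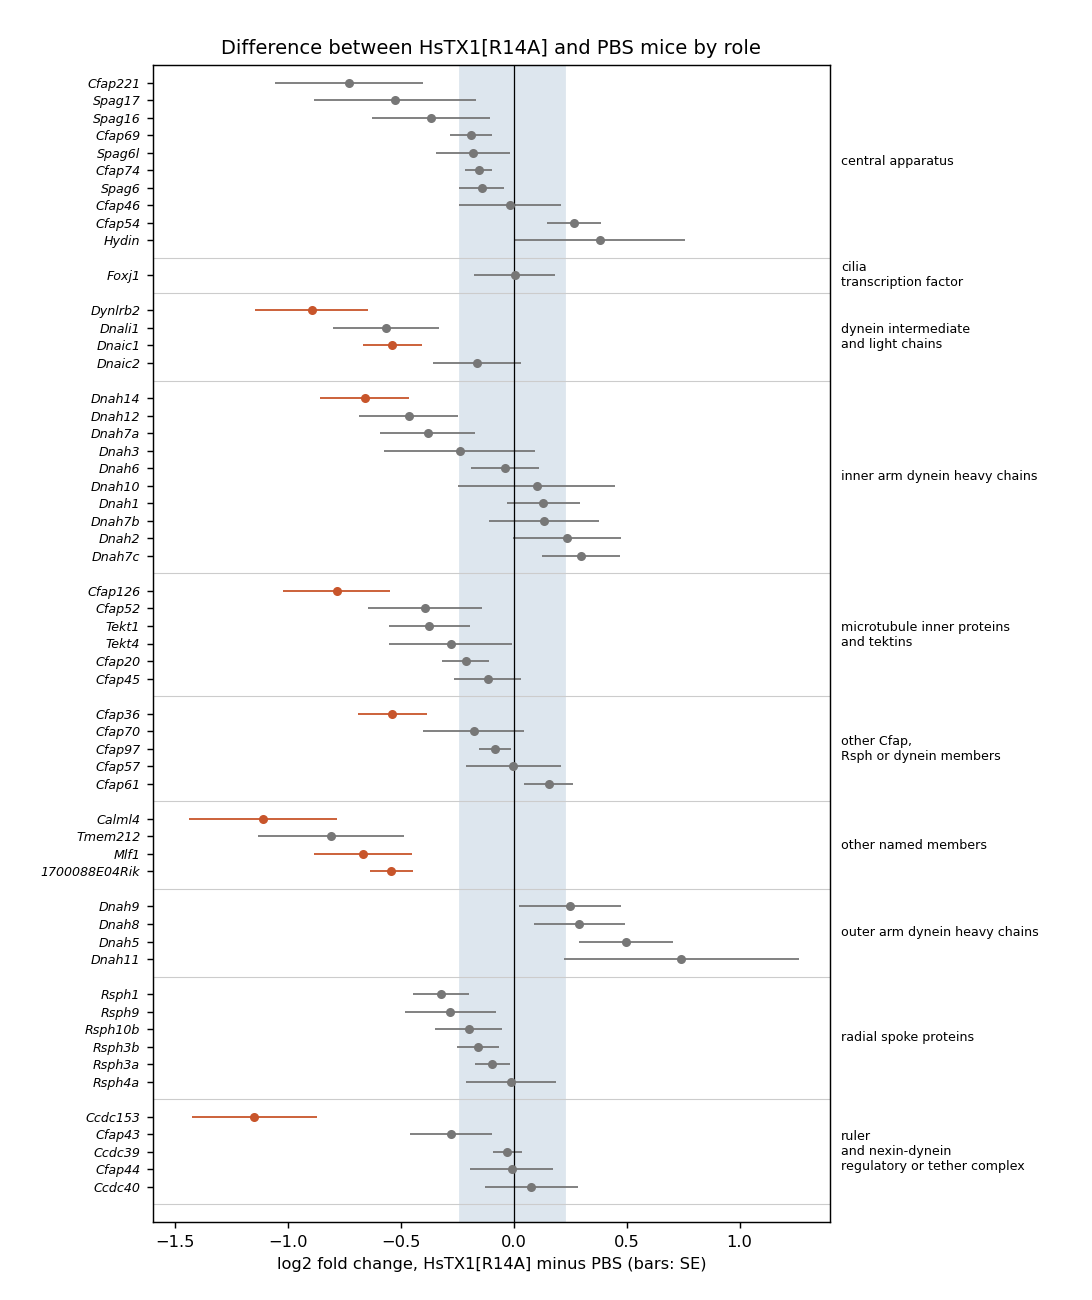
Log2 fold change, HsTX1[R14A] minus PBS, of the 55 genes by role, with bars for 1 SE. Orange marks the 9 genes with an FDR of at most 0.05, and the shaded band holds the middle 50% of all 16303 genes. The 4 outer arm heavy chains lie right of 0, and the dynein intermediate and light chains, the microtubule wall genes and the radial spoke genes lie left of it.

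The difference between treatments followed transcript length within the set. Libraries differ in how strongly counts depend on length, and HsTX1[R14A] libraries leaned towards long transcripts (slope of centered log2 CPM on log2 length, 0.102 ± 0.119, SD, n = 9) compared with PBS libraries (-0.0764 ± 0.161, SD, n = 12). Across the 54 genes with a length, the log2 fold change rose with log2 length with a Pearson coefficient of 0.716 (Spearman 0.735), and across all 16224 genes with a length with one of 0.496 (Spearman 0.512). Genes share libraries and are not independent replicates.

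All 10 genes with transcripts up to 2000 bases were below 0, with a median log2 fold change of -0.60, where all genes of that length had -0.27. Of the 14 genes over 11000 bases, 4 were below 0 and the median was 0.18, where all genes of that length had 0.39. Between these, 21 of 24 genes over 2000 and up to 5000 bases (median -0.17, all genes 0.00) and 5 of 6 genes over 5000 and up to 11000 bases (median -0.09, all genes 0.21) were below 0. In each of the 4 ranges the median of the set was lower than that of all genes of the range.

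With each library's loess trend on length and GC content removed, 44 of the 55 genes were below 0, with a median of -0.22 against 0.00 for all genes. The FDR limit was then passed by 6 (10.9%), all lower, and by 16.5% of all genes (6.43% lower). These were Ccdc153 (-0.80 ± 0.23, SE), Calml4 (-1.11 ± 0.32), Dnah14, 1700088E04Rik, Dnaic1 and Cfap74. Dnah14 has no annotated length, so no trend could be removed from it, and it stayed at -0.66. Dynlrb2 moved from -0.90 to -0.39, Mlf1 from -0.67 to -0.28 and Foxj1 from 0.00 to -0.23, whereas Hydin moved from 0.38 to 0.03. The longest transcript of Calml4, with 2403 bases, is not one of its protein-coding ones, the longest of which has 864. With the longest protein-coding transcript of each gene, an alternative added after the values had been seen, Calml4 was at -0.67 ± 0.30, 47 of the 55 genes were below 0 (median -0.24, all genes -0.01), and 9 were called (16.4%), all lower, with 14.5% of all genes called (6.16% lower). Only 4 of these 9, Ccdc153, 1700088E04Rik, Dnaic1 and Dnah14 (again with no trend removed), were among the 9 called as deposited. Calml4 was not called. The others were Cfap46, Cfap74 and the inner arm genes Dnah12 (-0.62 ± 0.20), Dnah2 (-0.40 ± 0.12) and Dnah6 (-0.43 ± 0.08). The part of the length trend in the difference between treatments was not tested.

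**Figure D4:**
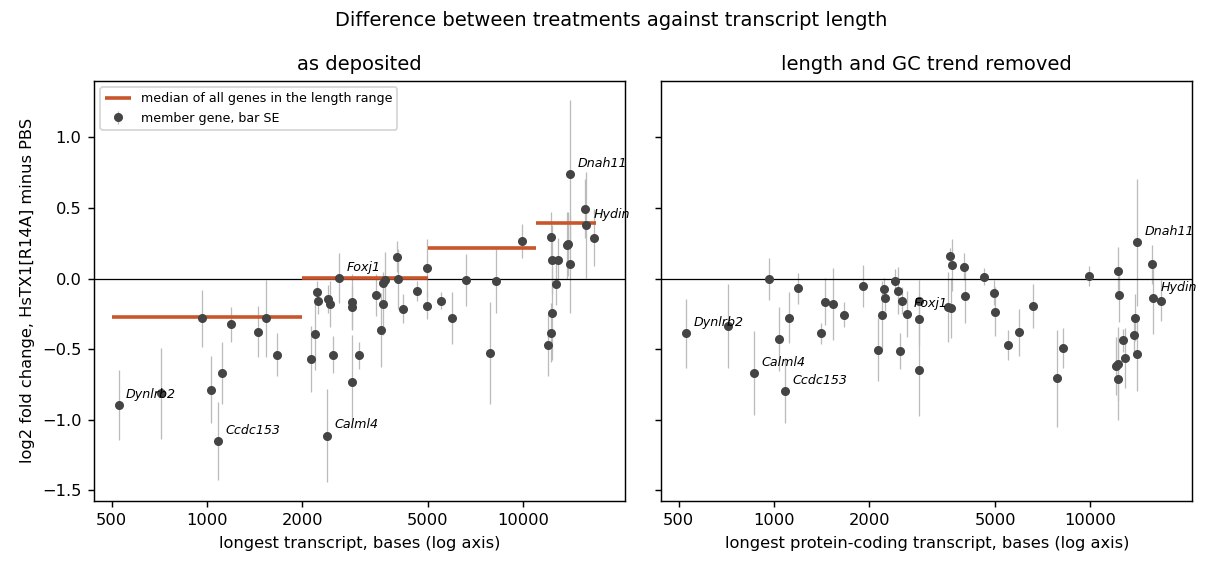
Log2 fold change, HsTX1[R14A] minus PBS, with 1 SE, against transcript length on a log axis, for the 54 genes with a length. On the left, values as deposited climb with length and lie mostly under the orange medians of all genes in 4 length ranges. On the right, with the length and GC trend of each library removed by the longest protein-coding transcript, 47 of all 55 genes lie below 0 and the coefficient with length is 0.0297.

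Ciliary genes outside the set, from lists written with earlier results of these data known, changed in both directions. Among 52 other axonemal genes tested, 10 passed the FDR limit (19.2%, of 31.6% of all genes), 7 lower and 3 higher, led by Drc1, a nexin-dynein regulatory gene (log2 fold change 0.35 ± 0.07, SE, edgeR adjusted p = 0.0151), and Ccdc151, an outer arm docking gene (0.37 ± 0.09, adjusted p = 0.0154). Of 14 dynein assembly factors, 3 fell and 1 rose (28.6%), with Pih1d2 at -0.55 ± 0.15 (adjusted p = 0.0180) and Dnaaf5 at 0.43 ± 0.14 (adjusted p = 0.0326). Of 18 regulators of multiciliation, 1 fell (Gmnn, the geminin gene, -0.53 ± 0.16, adjusted p = 0.0239) and 1 rose (Rfx1, 0.62 ± 0.23, adjusted p = 0.0449), 11.1% in all. Called or not, 40 of the 52 axonemal genes had log2 fold changes below 0 (median -0.23), where 51.4% of all genes did. So did 12 of the 14 assembly factors (median -0.22) and 7 of the 18 regulators (median 0.08). With the length and GC trend removed, Drc1 and Ccdc151 passed the limit, while Pih1d2 (adjusted p = 0.114), Dnaaf5 (0.150), Gmnn (0.132) and Rfx1 (0.137) did not.

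Intraflagellar transport and BBSome genes, which serve motile and primary cilia alike and are used by most brain cells, were called in 25 of 46 cases (54.3%, of 31.6% of all genes), 12 lower and 13 higher. With the length and GC trend removed 12 were called (16.5% of all genes being called), of which 3 were lower. Ift52, of the transport complex that moves outward, fell (-0.28 ± 0.06, SE, edgeR adjusted p = 0.0151), as did Hspb11 of the same complex (-0.56 ± 0.13, adjusted p = 0.0151), with adjusted p of 0.0790 and 0.0258 once the trend was removed. Of 32 genes of the primary cilium of neurons, 3 fell and 5 rose (25%), among them Tctn2 of the transition zone (0.34 ± 0.08, adjusted p = 0.0153) and the adenylyl cyclase gene Adcy3 (0.69 ± 0.16, adjusted p = 0.0161).

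Of 18 ependymal genes outside the cilium, 4 fell and 2 rose (33.3%, of 31.6% of all genes), led by Cdh2 (0.38 ± 0.09, SE, edgeR adjusted p = 0.0151) and S100a6 (-0.66 ± 0.18, adjusted p = 0.0184), and 1 was called with the length and GC trend removed. Called or not, 12 of the 18 had log2 fold changes below 0 (51.4% of all genes did), with a median of -0.16, and of -0.04 with the trend removed. Of 24 choroid plexus markers none passed (1 with the trend removed), with 20 log2 fold changes below 0 and a median of -0.18, Otx2 at -0.67 ± 0.29 (adjusted p = 0.0766) and Cldn1 at -0.39 ± 0.17 (adjusted p = 0.0798). Their summed level ran from 385 to 1702 CPM (median 1329) in PBS mice and from 269 to 1440 CPM (median 984) in HsTX1[R14A] mice, and none of the 24 was at 0 counts in any mouse. Of 10 tanycyte markers 2 rose (20%), Nes among them (0.64 ± 0.24, adjusted p = 0.0470, and 0.244 with the trend removed).

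Of 10 oligodendrocyte markers 6 fell and none rose (60%, of 31.6% of all genes), as also with the length and GC trend removed, Opalin (-0.99 ± 0.16, SE, edgeR adjusted p = 0.0145) and Mobp (-0.67 ± 0.12, adjusted p = 0.0145) first, and their summed level ran from 4490 to 6881 CPM in PBS mice and from 3413 to 5013 CPM in HsTX1[R14A] mice. Of 12 astrocyte markers 4 fell and 1 rose (41.7%, with 2 called once the trend was removed), with S100b, which ependymal cells also express, at -0.72 ± 0.17 (adjusted p = 0.0152) and Gfap at -0.59 ± 0.20 (adjusted p = 0.0312). Of 12 neuron markers 2 rose (16.7%, and none with the trend removed), Nefm (0.61 ± 0.18, adjusted p = 0.0217) and Syt1 (0.31 ± 0.11, adjusted p = 0.0349). None of the markers of these 3 types was at 0 in any mouse. With the more common name form alone, no gene of these lists passed the limit. The part of such shifts in the values of the ciliary genes was not tested.

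The contrast of females with males was not used to propose the set and could be tested. None of the 55 genes differed between the sexes at an FDR of 0.05 by edgeR, limma/voom or DESeq2, although 9 of all 16303 genes (0.0552%) did by edgeR, 10 (0.0613%) by limma/voom and 26 (0.159%) by DESeq2. The unadjusted p was under 0.05 for 5 of the 55 by edgeR (9.09%, against 10.8% of all genes), 7 by limma/voom (12.7%, against 12.3%) and 6 by DESeq2 (10.9%, against 12.7%). The 5 were Dnah5, Cfap44, Ccdc39, Dnah12 and Dnah7b, all higher in females (9.09%, where 5.03% of all genes were higher in females by this limit, and 5.6% by limma/voom, in which all 7 were), each with an edgeR adjusted p of 0.446.

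In direction the set leaned to females. The fitted level was higher in females for 43 of the 55 genes (78.2%, against 51.5% of all genes), with a median log2 difference of 0.19 against 0.01. Within PBS mice it was 44 of 55 (80%, against 52% of all genes), with a median of 0.26, and 0.21 with the length and GC trend removed. Over all 21 mice the count was 39 of 55 (70.9%, against 50.6%) by limma/voom and 43 of 55 (78.2%, against 51.1%) by DESeq2, in which 5 genes at an unadjusted p under 0.05 were higher in females (9.09%, against 5.76%). The difference also followed length, with a Pearson coefficient of 0.604 over 54 genes and 0.291 over all genes, and the length slope was 0.194 ± 0.0363 (SD, n = 3) in HsTX1[R14A] females and 0.0559 ± 0.12 (SD, n = 6) in HsTX1[R14A] males. With the length and GC trend removed, 44 of the 55 genes were higher in females (80%, against 47% of all genes), with a median of 0.16, and 6 were so at an unadjusted p under 0.05 (10.9%, against 4.59%). The genes vary together, so these counts are not of independent genes. All 4 outer arm heavy chains were higher in females (median 0.47), as were 9 of the 10 inner arm ones (median 0.35).

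Dnah5 ran from 2.02 to 4.51 CPM (median 2.82) in PBS females and from 0.841 to 3.30 (median 2.62) in PBS males, and from 4.26 to 6.34 (median 4.55) in HsTX1[R14A] females and from 2.07 to 4.01 (median 2.79) in HsTX1[R14A] males. The sexes overlapped in PBS mice and not in HsTX1[R14A] mice, where there were 3 females and no share over all genes to set beside this. The difference of females from males was 0.56 ± 0.21 (SE) on the log2 scale, and 0.37 with the length and GC trend removed. Dnah12 ran from 0.871 to 2.58 CPM (median 1.74) in PBS females and from 0.682 to 1.49 (median 1.11) in PBS males, at 0.49 ± 0.22. Foxj1 ran from 6.28 to 11.1 CPM (median 8.52) in PBS females and from 4.84 to 8.11 (median 6.80) in PBS males, at 0.28 ± 0.18.

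**Figure D5:**
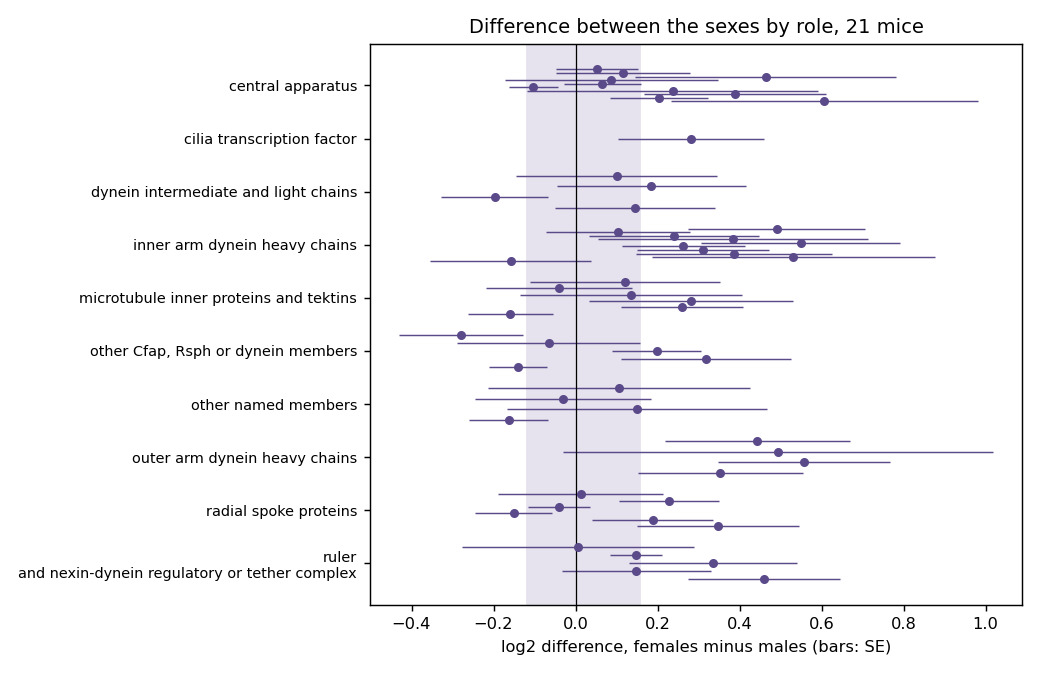
Log2 difference, females minus males, of the 55 genes by role over 21 mice, with treatment in the model and bars for 1 SE. The shaded band holds the middle 50% of all genes. The 4 outer arm heavy chains lie between 0.35 and 0.56, and 43 of the 55 genes lie right of 0.

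The difference between treatments was not found to depend on sex in any of the 55 genes at an FDR of 0.05 (edgeR interaction term, 0 of all 16303 genes), and limma/voom and DESeq2 likewise made no call. The unadjusted p was under 0.05 for 2 of the 55 by each tool (3.64%, against 1.66% of all genes by edgeR, 1.53% by limma/voom and 1.85% by DESeq2), and for 3 with the length and GC trend removed (5.45%, against 2.26%). By edgeR these were Tmem212, with a log2 fold change of -1.95 ± 0.50 (SE) in females and -0.15 ± 0.24 in males, and Cfap221, with -1.71 ± 0.40 in females and a male value not given because it failed the filter there. Cfap221 had few counts, 5 to 13 in HsTX1[R14A] females and 9 to 22 in PBS females. The groups hold 3 HsTX1[R14A] females, which also limits this comparison.

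The columns of the deposited table name the libraries in 2 forms, which cover 10 PBS and 5 HsTX1[R14A] mice and 2 PBS and 4 HsTX1[R14A] mice. None of the 55 genes differed between the forms at an FDR of 0.05 (edgeR with sex and treatment in the model, 8 of all genes, 0.0491%), with 2 of the 55 at an unadjusted p under 0.05 (3.64%, against 10.8% of all genes) and none called by limma/voom (3 of all genes). With the length and GC trend removed, none of the 55 and 72 of all genes were called, and 3 of the 55 had an unadjusted p under 0.05 (5.45%, against 15.7%). Within the 15 mice of the more common form the median log2 fold change of the set with treatment was -0.18, with 39 of 55 genes below 0, while no gene of the table passed the FDR limit there and 15 of the 55 had an unadjusted p under 0.05 (35.6% of all genes).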

How the data were processed

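Whole-brain RNA libraries of 21 SAMP8 mice (PBS, 6 female and 6 male; HsTX1[R14A], 3 female and 6 male) were made with 1 library per mouse. The authors used STAR and Salmon with GRCm38, and the deposited table holds estimated counts, not normalized, of 16318 genes. The authors' fold change, p-value and FDR columns, and 53 further per-sample columns (37 of CPM, 16 of counts), were left out. Within a tolerance of 0.01, 90.5% of the values were whole, and the rest were rounded before fitting. The labels and the methods name different library kits, so strand use is uncertain, and 32 of the 55 genes overlap a gene on the other strand and 11 one on the same strand. Nothing states that mice of a group came from separate litters, so p-values measure the spread between these mice.

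The 16303 genes that passed filterByExpr were fitted with edgeR 4.0.16 (glmQLFit, glmQLFTest; R 4.3.3) with TMM scaling, sex and treatment, and adjusted by Benjamini and Hochberg over all genes at an FDR of 0.05. SE is the log2 fold change divided by the root of F. Log2 CPM carries a prior count of 2. Transcript lengths are from GENCODE for GRCm38 (54 of 55 genes), the loess trend on length and GC content used a span of 0.5, and promoters are from RefSeq. Genes without a length, Dnah14 among them, kept their values as deposited where the trend was removed from the others. The fit was tested on simulated counts of independent genes, without a length trend or a sex difference. Of 200 genes changed by a factor of 2 among 16298, edgeR recovered 174, with 15 false calls. Limma/voom recovered 174 with 12 false calls, and DESeq2 181 with 33. The genes, lists and tests were chosen with earlier results of these data known. Group values are given for Foxj1, Ccdc153, Calml4 and the 2 genes of highest mean count in each role, and for the others after their values were seen. Of each list the 2 genes of smallest p are named, except 1 that is not reported here. Alternatives were limma/voom (limma 3.58.1), DESeq2 1.42.0, RLE scaling, other filters, no sex term, each sex alone, the library name form or length slope as covariate, the common name form alone, trend removal, median transcript length and each mouse left out. The longest protein-coding transcript and the omission of the 2 PBS libraries of lowest length slope were added after the data had been seen.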

Additional observations from a re-analysis of the deposited data

Results flagged for a closer look

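Over 20 genes and the means of the roles, 87 groups of 6 mice were tested for a mouse far from the others. The 3 HsTX1[R14A] females were too few for this. Of the 87, 3 were marked, and chance alone marks about 1 in 20, a larger share. Cfap74 was at 3.40 log2 CPM in PBS female 103, where the other PBS females lay between 3.69 and 3.80. Cfap20 was at 5.63 log2 CPM in PBS male 90, where the other PBS males lay between 5.13 and 5.31. Dnah6 was at 1.54 log2 CPM in HsTX1[R14A] male 93, where the other males of that treatment lay between 2.39 and 2.64. The slope of these libraries on transcript length was -0.384 (PBS 103), -0.337 (PBS 90) and -0.142 (HsTX1[R14A] 93), the lowest of their treatment groups. The part of that slope in these values was not tested.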

How the results depend on the processing

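The 9 of 55 genes called for treatment (16.4%, against 31.6% of all genes) became 14 with DESeq2 (25.5%, against 37.7%). They became 4 with the library name form as covariate (7.27%, against 12.3%). No gene of the table was called with each library's length slope as covariate, with the more common name form alone, or in either sex alone. The unadjusted p was under 0.05 for 17 of 55 with the slope (30.9%, against 11.4% of all genes) and 15 with the common form (27.3%, against 35.6%). It was so for 12 in females alone (21.8%, against 20.4%) and 10 of 54 in males alone (18.5%, against 27.6%). With 1 mouse left out at a time the count of called genes ran from 7 (without PBS male 90) to 14 (without HsTX1[R14A] male 93). In all, 2289 and 6614 of 16302 genes were then called, against 5144 of 16303 with every mouse. Without PBS mice 90 and 103 the count was 7 (12.7%, against 17.7% of all genes). Mlf1 lost its call without PBS male 90 or without HsTX1[R14A] mice 98, 72 or 81, Dnah14 without PBS male 90 and Cfap126 without HsTX1[R14A] female 98. Calls for sex and for treatment by sex were 0 of 55 with every mouse left out. The calls over all comparison lists were 69 (31.6% of all genes being called). They were 32 with the name form as covariate (12.3%), 36 with the trend removed (16.5%) and 33 with it removed by the longest protein-coding transcript (14.5%). There were 40 without PBS mice 90 and 103 (17.7%), and 0 with the length slope as covariate or the common form alone. With 1 mouse left out these calls ran from 38 (without PBS male 90) to 89 (without HsTX1[R14A] male 93). There were 42 without HsTX1[R14A] female 98 and 45 without HsTX1[R14A] male 88, with 3005 of 16305 and 3121 of 16303 genes called in all. The coefficient of log2 fold change with length, 0.716, was 0.229 with the trend removed, 0.0297 with it removed by the longest protein-coding transcript, 0.484 with the median transcript and 0.611 without PBS mice 90 and 103, and ran from 0.668 to 0.747 with 1 mouse left out. The median pair coefficient in PBS mice ran from 0.178 to 0.266. The causes of these changes were not tested. The paper states that mice were randomized to treatment within each cage. The sample titles give no cage, so no analysis blocked by cage was possible and cage was not in the model.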
